A study of Homo sapiens with 4 samples.

Results

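A set of 10 long noncoding RNAs known from the cell nucleus or from cancer was followed in prostate cancer cells exposed to a compound directed at the transcription kinase CDK9. They were MALAT1, NEAT1, NORAD, TUG1, PVT1, OIP5-AS1, CRNDE, KCNQ1OT1, PCAT1 and LINC00339, found in the table by gene symbol, and they are 10 of the 63241 genes in the expression table. 22Rv1, an established human prostate carcinoma line that the labels class as castration-resistant, received 40 nM JMC45 for 12 h in 2 libraries, or the DMSO vehicle for the same time in 2 libraries. The series' own title and design call the compound D45, taken here to be the same one, and describe it as a CDK9 degrader. RNA was selected by oligo(dT) beads and sequenced from a stranded kit. Separate cultures are not stated for the 2 libraries of a group. The p-values therefore rest on the spread between libraries, which could be technical.

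A long noncoding RNA (lncRNA) is transcribed by RNA polymerase II, as messenger RNA is, but acts as RNA. CDK9 is the kinase of P-TEFb, which releases RNA polymerase II from its pause near the start of genes. MALAT1 gathers in nuclear speckles, which store splicing factors, and NEAT1 is the scaffold of paraspeckles, nuclear bodies built of RNA and RNA-binding proteins. NORAD binds PUMILIO proteins in the cytoplasm, KCNQ1OT1 silences neighbouring genes of an imprinted region, and PVT1 and PCAT1 lie in the gene-poor region around MYC that is amplified in many cancers.

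Values are TPM, the authors' length-scaled share that each gene takes of its library, so a change is a change in a share. No spike-in was analysed here. The sequencing depth behind the values is unknown. Changes are differences in log2(TPM + 1), JMC45 minus vehicle, which understate the change of RNAs with few TPM. Limma was fitted over the 14018 genes with a mean of at least 1 TPM. It moderates the variance of each gene towards that of genes of similar level, so SEs and p-values do not rest on a single gene's spread alone. The p-values were adjusted over all 14018 genes by the Benjamini-Hochberg method. An RNA is said to have risen or fallen when its adjusted p was under 0.05.

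Of the 8 RNAs that passed the filter, 6 fell after JMC45, CRNDE rose slightly, and MALAT1, the most abundant, did not pass the test. These counts stood against a table in which 80.7% of all tested genes fell and 4.25% rose, and in which 72.0% of the 1478 tested lncRNA genes fell and 6.50% rose. The median change of the 8 was -1.47, against -1.10 for all tested genes and -1.05 for the tested lncRNAs. With 0.1 added to TPM in place of 1, these medians were -1.49, -1.34 and -1.54. The 8 then no longer lay below the lncRNAs. The common downward shift depends on the scaling: with median-of-ratios scaling, which sets the median gene near no change (-0.01), 4 of the 8 fell and 4 rose, against 35.3% of all tested genes falling and 35.5% rising, and 36.4% of lncRNAs falling and 25.3% rising. With quantile normalization 5 fell and 2 rose, against 34.4% of all tested genes falling and 32.7% rising, and 30.7% of lncRNAs falling and 29.8% rising. NEAT1, NORAD, TUG1 and LINC00339 fell with every scaling tried, while MALAT1, CRNDE, PVT1 and OIP5-AS1 changed sign with at least 1 of them. KCNQ1OT1 and PCAT1 were below the filter.

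The shares of some abundant transcripts moved with the treatment. Mitochondrially encoded RNAs made up 26.6% and 29.3% of TPM in the JMC45 libraries and 20.4% and 20.1% in the vehicle libraries. Transcripts of cytosolic ribosomal proteins made up 30% and 28.4% in the JMC45 libraries and 18.6% and 20.2% in the vehicle libraries. When TPM was recomputed without both sets, 5 of the 8 RNAs fell and 2 rose, against 65.2% of all tested genes falling and 11.8% rising, and the median of all tested genes was -0.79. The share of the 8 that fell was close to that of all genes. Markers of luminal prostate epithelium were present. With TPM as deposited 8 of 9 fell, while 4 fell and 4 rose with median-of-ratios scaling and 5 fell and 2 rose with quantile normalization. Among all tested genes 80.7% fell with TPM as deposited, 35.3% with median-of-ratios scaling and 34.4% with quantile normalization. The keratin KRT8 was at 160.33 and 165.44 TPM in JMC45 libraries and 198.19 and 208.20 TPM in vehicle libraries. The leukocyte marker CD3E was listed at 0 in all 4 libraries, and of 10 markers of leukocytes, endothelium and fibroblasts COL1A1 and LUM passed the filter, neither of which passed the test with TPM as deposited, while 1 of them rose with median-of-ratios scaling.

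**Figure D1:**
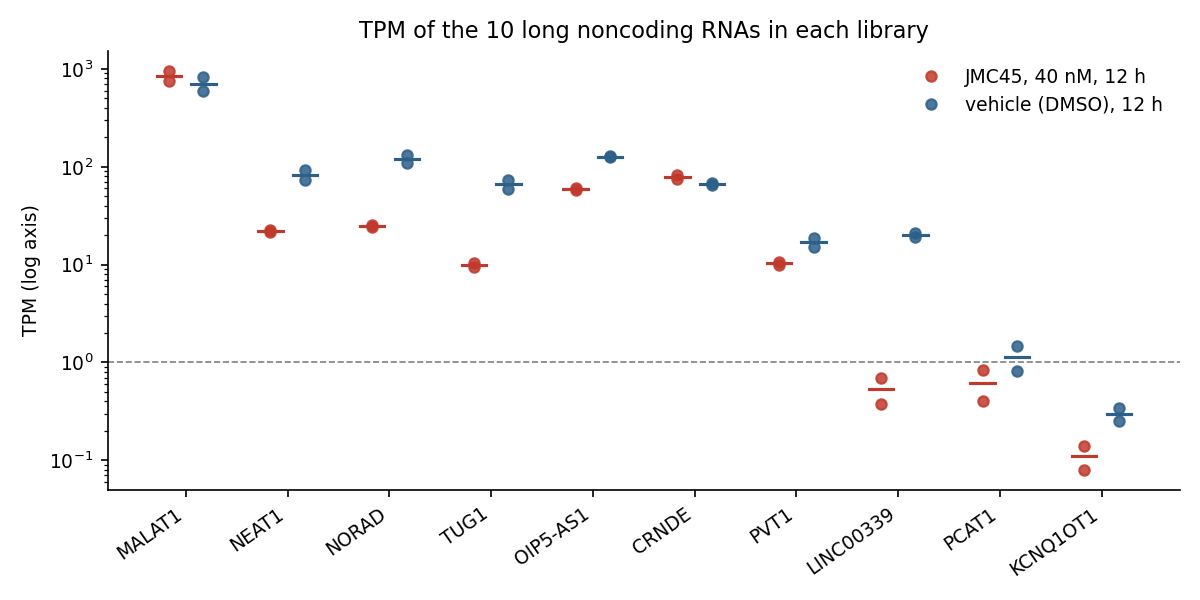
TPM of each of the 10 RNAs on a log axis, with 1 point per library and JMC45 drawn left of vehicle; the dashed line marks 1 TPM, the level of the filter on the mean. The points of MALAT1 and PCAT1 overlap between the groups, CRNDE lies higher in both JMC45 libraries, and the other 7 lie lower in both. Of all tested genes 85.7% lay lower and 6.28% higher without overlap. KCNQ1OT1, among the 7, was below the filter and not tested.

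MALAT1 (ENSG00000251562, chromosome 11), the speckle RNA, whose 3′ end is a triple helix with a genome-encoded A-rich tract, measured 745.95 and 958.79 TPM in the JMC45 libraries and 821.76 and 594.61 TPM in the vehicle libraries. The groups overlapped, since the higher vehicle library lay between the JMC45 libraries. Its means were 852.4 ± 151 TPM after JMC45 and 708.2 ± 161 TPM with vehicle (SD, n = 2 each), and limma gave a log2 change of 0.27 (SE 0.18, adjusted p = 0.197). In the vehicle libraries its mean had rank 3 among the tested lncRNAs. How well the oligo(dT) selection captured the 3′ end of MALAT1 is not known, so its level beside other RNAs is uncertain. Its change was higher than those of 95.3% of all tested genes and 91.7% of the tested lncRNAs. The sign and the call both moved with the scaling: the change was 1.64 with median-of-ratios scaling (limma adjusted p = 0.000291), 0.26 with quantile normalization (adjusted p = 0.345) and -0.19 with equal mitochondrially encoded totals (adjusted p = 0.291). TALAM1, the antisense transcript of the MALAT1 locus, was listed at 0 TPM in all 4 libraries.

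NEAT1 (ENSG00000245532), the paraspeckle RNA, is a neighbour of MALAT1 on chromosome 11. It measured 22.67 and 21.48 TPM in the JMC45 libraries, against 91.90 and 72.62 TPM in the vehicle libraries. Both JMC45 values lay below both vehicle values, as in 85.7% of all tested genes. The mean was 22.08 ± 0.841 TPM after JMC45 and 82.26 ± 13.6 TPM with vehicle (SD, n = 2 each), 3.73-fold lower, and its log2 change was -1.84 (SE 0.12, limma adjusted p = 3.37e-05). NEAT1 also fell with median-of-ratios scaling, by 0.51 on the log2 scale (adjusted p = 0.0032). The TPM of the gene adds up its short and long isoforms, which end at different places, so the values do not tell them apart. Whether the oligo(dT) selection captured both isoforms alike is not known, so the fall may not describe each of them.

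A TPM ratio of 2 RNAs within a library is not altered by a scaling that multiplies the whole library by a factor; quantile normalization is not of that kind. The log2 ratio of NEAT1 to MALAT1 was -5.26 ± 0.311 in JMC45 libraries and -3.10 ± 0.09 in vehicle libraries (SD, n = 2 each), a difference of -2.16 with no overlap. With quantile normalization the change was -0.88 for NEAT1 and 0.26 for MALAT1, so the gap between them was smaller. The exact two-sided permutation test gave p = 0.33, which is the smallest that 2 libraries against 2 allow, so no such ratio can pass a threshold of 0.05. This limit holds for all 11 pairs of RNAs compared, of which 9 are shown, and the p adjusted over these pairs was 0.37 for each pair whose groups did not overlap. The log2 ratio of NEAT1 to its neighbour FRMD8 was 3.77 ± 0.071 in JMC45 libraries and 3.41 ± 0.114 in vehicle libraries (SD, n = 2 each), a smaller difference of 0.36.

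Proteins of the bodies that hold these RNAs were described by lists. Transcripts of 32 of 32 paraspeckle proteins fell, with a median change of -1.11, close to that of all genes. The 4 largest changes were those of UBAP2L (-3.39), RBM7 (-3.32), ZNF24 (-2.39) and RBMX (-2.36). With median-of-ratios scaling 9 of the 32 fell and 16 rose. Quantile normalization gave the opposite picture: 23 fell and 2 rose, against 34.4% of all tested genes falling and 32.7% rising. Transcripts of 26 of 26 nuclear speckle proteins fell, with a median of -1.40, and 12 fell and 10 rose with median-of-ratios scaling. With quantile normalization 17 of the 26 fell and 2 rose. The lowest were SRSF3 (-3.99), RBM25 (-2.73), CLK1 (-2.63) and SRSF7 (-2.44). The splicing factor SRSF3 measured 27.47 and 27.63 TPM in JMC45 libraries, against 484.33 and 423.27 TPM in vehicle libraries. Of 18 genes of the nuclear RNA exosome and its adaptors, which degrade many nuclear noncoding RNAs, 18 fell, with a median of -1.85. They were led by EXOSC3 (-3.65), RBM7 (-3.32), EXOSC4 (-3.29) and ZCCHC8 (-2.92), and 10 fell and 3 rose with median-of-ratios scaling. With quantile normalization 12 of the 18 fell and 0 rose. Of all tested genes 80.7% fell and 4.25% rose with TPM as deposited. With median-of-ratios scaling 35.3% of all tested genes fell and 35.5% rose.

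NORAD (ENSG00000260032, chromosome 20) carries repeated PUMILIO recognition elements, by which it binds PUM2 and related proteins that lower the stability of their target mRNAs. Its longest annotated transcript, of 5339 bases, held 15 copies of TGTANATA, read on the RNA strand alone, or 2.81 per 1000 bases. KCNQ1OT1 held 9, NEAT1 6, TUG1 2 and OIP5-AS1 1, in longer transcripts, and the other 5 RNAs held none. Of the longest transcripts of 15736 lncRNA genes, 9.58% held at least 1. A few of the NORAD elements are shown because the repeats are what sets its sequence apart here; capitals mark the element, letters are those of GENCODE release 29, and the number is the position in the transcript counted from its 5′ end.
NORAD element at 761: aaggcctgTGTATATAatatgaaa
NORAD element at 1241: tcacatttTGTAAATAcctttttg
NORAD element at 2972: ccctactgTGTATATAgcggacaa

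NORAD measured 24.42 and 25.32 TPM in JMC45 libraries and 131.17 and 108.63 TPM in vehicle libraries. The groups were well apart, and the JMC45 libraries were close to each other. Of all tested genes 85.7% were lower without overlap. The NORAD mean was 24.87 ± 0.636 TPM after JMC45 and 119.9 ± 15.9 TPM with vehicle (SD, n = 2 each), 4.82-fold lower, and its log2 change was -2.22 (SE 0.10, limma adjusted p = 1.34e-05). It fell by 0.88 with median-of-ratios scaling. PUM2 measured 12.64 and 11.40 TPM in JMC45 libraries and 48.95 and 41.48 TPM in vehicle libraries. The log2 ratio of NORAD to PUM2 was 1.05 ± 0.142 in JMC45 libraries and 1.41 ± 0.023 in vehicle libraries (SD, n = 2 each), without overlap. Against EPB41L1, a neighbouring protein-coding gene, the log2 ratio of NORAD was 2.07 ± 0.097 in JMC45 libraries and 3.10 ± 0.173 in vehicle libraries (SD, n = 2 each). All 8 listed NORAD partners fell with TPM as deposited, while 3 fell and 4 rose with median-of-ratios scaling. With quantile normalization 4 of the 8 fell and 0 rose. Among all tested genes 80.7% fell with TPM as deposited, 35.3% with median-of-ratios scaling and 34.4% with quantile normalization.

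TUG1 (ENSG00000253352), a nuclear and cytoplasmic RNA first described in the retina, starts on chromosome 22 close to MORC2, which is read in the opposite direction. It measured 9.36 and 10.49 TPM in JMC45 libraries and 73.99 and 59.79 TPM in vehicle libraries. It was lower without overlap, as were 85.7% of all tested genes. Its mean was 9.925 ± 0.799 TPM after JMC45 and 66.89 ± 10.0 TPM with vehicle (SD, n = 2 each), 6.74-fold lower, and its log2 change was -2.63 (SE 0.12, limma adjusted p = 1.38e-05). Only 4.26% of all tested genes and 2.57% of the tested lncRNAs had a lower change. On the log2(TPM + 1) scale genes with few TPM cannot fall as far, so this rank depends partly on abundance. MORC2, a chromatin-silencing ATPase, fell too, measuring 3.11 and 2.20 TPM in JMC45 libraries and 23.28 and 29.62 TPM in vehicle libraries. The log2 ratio of TUG1 to MORC2 was 1.92 ± 0.469 in JMC45 libraries and 1.34 ± 0.463 in vehicle libraries (SD, n = 2 each), and the groups overlapped (exact permutation p = 0.67).

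LINC00339 (ENSG00000218510, chromosome 1), a spliced lncRNA next to CDC42, had the lowest change of the 8. It measured 0.70 and 0.38 TPM in JMC45 libraries and 20.98 and 19.23 TPM in vehicle libraries. Its mean was 0.54 ± 0.226 TPM after JMC45 and 20.11 ± 1.24 TPM with vehicle (SD, n = 2 each), 37.2-fold lower. The log2 change was -3.78 (SE 0.15, limma adjusted p = 1.11e-05). None of the other tested lncRNAs had a lower one, and among all tested genes 0.0856% did. On the log2(TPM + 1) scale, genes with few TPM in vehicle libraries could not reach so low a value. The rank thus depends partly on abundance. Both JMC45 values were also under 1 TPM, so LINC00339 passed the filter on the mean only through its vehicle libraries. With 0.1 added to TPM in place of 1, the change of LINC00339 was -5.03. It fell by 2.87 with median-of-ratios scaling. CDC42, a small GTPase of the cytoskeleton, measured 119.13 and 127.63 TPM in JMC45 libraries and 178.58 and 178.57 TPM in vehicle libraries, a change of -0.53 (limma adjusted p = 0.00035) that turned to 0.82 with median-of-ratios scaling. The log2 ratio of LINC00339 to CDC42 was -7.90 ± 0.694 in JMC45 libraries and -3.15 ± 0.089 in vehicle libraries (SD, n = 2 each), a difference of -4.75 and the largest difference in either direction among the 11 pairs. Nothing was added to TPM in this ratio. With LINC00339 under 1 TPM in both JMC45 libraries, the sizes of this difference and of the 37.2-fold fall are uncertain. The difference ranged from -5.24 to -4.26 leaving out a library. CDC42-AS1, whose exons overlap those of LINC00339 on the opposite strand in GENCODE release 29, measured 0.02 and 0.06 TPM in JMC45 libraries and 2.10 and 1.48 TPM in vehicle libraries. The sources do not state that strand was used in the quantification, so reads of the pair may not be separated. The same holds, among other pairs, for OIP5-AS1 with OIP5, KCNQ1OT1 with KCNQ1 and PCAT1 with LRATD2. Exons of LINC00339 also overlap those of other annotated genes on its own strand, which strand could not separate.

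**Figure D2:**
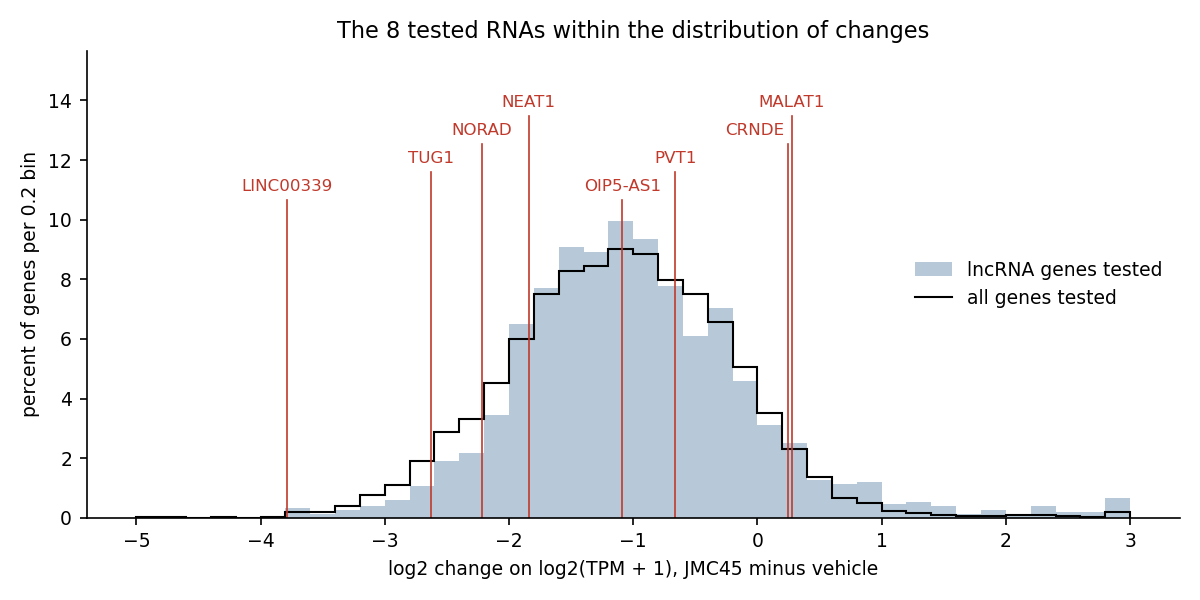
Distribution of the log2(TPM + 1) change, JMC45 minus vehicle, over the tested lncRNA genes and over all tested genes, with values beyond the ends of the axis placed in the end bins and the 8 tested RNAs marked at their own changes. LINC00339 lies in the lower tail at -3.78, OIP5-AS1 close to the median gene, and MALAT1 and CRNDE near 0.27 and 0.25 in the upper tail.

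CRNDE (ENSG00000245694), raised in colorectal and other tumours and transcribed divergently from the homeobox gene IRX5, measured 83.28 and 74.65 TPM in JMC45 libraries and 64.52 and 68.26 TPM in vehicle libraries. Both JMC45 values lay above both vehicle values, as in 6.28% of all tested genes. The mean was 78.97 ± 6.1 TPM after JMC45 and 66.39 ± 2.64 TPM with vehicle (SD, n = 2 each), a ratio of 1.19. Its log2 change of 0.25 (SE 0.08, limma adjusted p = 0.0274) became -0.21 with equal mitochondrially encoded totals (adjusted p = 0.151). The call was lost without JMC45 replicate 1 (0.17, limma adjusted p = 0.133), without vehicle replicate 1 (0.21, adjusted p = 0.135) and without vehicle replicate 2 (0.29, adjusted p = 0.0669). IRX5 fell to 0.66 and 0.63 TPM in JMC45 libraries, against 6.78 and 7.14 TPM in vehicle libraries. Relative to IRX5, CRNDE had a log2 ratio of 6.93 ± 0.064 in JMC45 libraries and 3.25 ± 0.005 in vehicle libraries (SD, n = 2 each), a difference of 3.68 and the highest among the 11 pairs. IRX5 was under 1 TPM in both JMC45 libraries, so the size of this difference is uncertain.

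The start regions of 4 of the RNAs are shown because they span the outcomes above: MALAT1 and CRNDE, which were not lower after JMC45 with TPM as deposited, and TUG1 and LINC00339, the pair with the lowest changes. Each window runs from 250 bases before to 50 bases after a RefSeq transcript start (GRCh38.p14), on the strand of the gene. Capitals mark matches on either strand, which may overlap. The core promoter motifs searched were the TATA box, spelled TATAAA, the GC box bound by SP1, spelled GGGCGG, and the CCAAT box, spelled as its name. The motifs of other factors were the E-box of MYC and its relatives, spelled CACGTG, the site of ETS factors, spelled CCGGAA, the core of the cyclic AMP response element, spelled TGACGT, the site of AP-1 factors, spelled TGANTCA, and the core of the NRF1 site, spelled GCGCA. For MALAT1 and LINC00339 the more upstream of 2 windows is printed.
CRNDE, chr16:54928837-54929136, minus strand: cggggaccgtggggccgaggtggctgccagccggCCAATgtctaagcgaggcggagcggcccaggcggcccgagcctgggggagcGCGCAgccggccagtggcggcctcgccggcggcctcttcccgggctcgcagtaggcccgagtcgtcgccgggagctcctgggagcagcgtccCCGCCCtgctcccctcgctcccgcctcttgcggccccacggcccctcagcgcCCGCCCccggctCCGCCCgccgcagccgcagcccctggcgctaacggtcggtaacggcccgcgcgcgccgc
MALAT1, chr11:65497488-65497787, plus strand: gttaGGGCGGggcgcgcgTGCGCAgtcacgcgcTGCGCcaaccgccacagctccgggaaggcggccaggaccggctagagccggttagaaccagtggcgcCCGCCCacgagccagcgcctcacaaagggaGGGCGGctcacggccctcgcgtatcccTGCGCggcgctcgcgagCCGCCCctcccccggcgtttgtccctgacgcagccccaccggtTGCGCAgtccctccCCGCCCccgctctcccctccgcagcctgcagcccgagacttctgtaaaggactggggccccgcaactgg
TUG1, chr22:30969015-30969314, plus strand: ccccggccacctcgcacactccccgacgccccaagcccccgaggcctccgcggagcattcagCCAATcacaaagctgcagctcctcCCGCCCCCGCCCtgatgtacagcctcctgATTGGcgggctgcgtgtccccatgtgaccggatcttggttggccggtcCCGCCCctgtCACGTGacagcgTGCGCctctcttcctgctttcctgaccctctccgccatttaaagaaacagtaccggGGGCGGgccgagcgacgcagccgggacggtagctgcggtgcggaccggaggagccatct
LINC00339, chr1:22024941-22025240, plus strand: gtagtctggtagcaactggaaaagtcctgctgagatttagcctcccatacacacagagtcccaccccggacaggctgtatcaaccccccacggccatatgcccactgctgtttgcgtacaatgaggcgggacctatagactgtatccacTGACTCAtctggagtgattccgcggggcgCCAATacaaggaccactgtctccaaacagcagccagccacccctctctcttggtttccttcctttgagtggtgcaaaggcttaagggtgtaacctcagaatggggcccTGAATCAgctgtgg

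The G+C content was 80.0% in the CRNDE window, 73.7% in that of MALAT1, 67.7% in that of TUG1 and 54.7% in that of LINC00339, against a median of 58.7% over 35116 windows. They held 44, 37, 28 and 7 CpG dinucleotides in the same order, against a median of 14. GC boxes numbered 3 in the CRNDE window, 5 in the MALAT1 window and 4 in the TUG1 window, and no match was in the LINC00339 window; 45.0% of all windows held at least 1. The LINC00339 window held 2 AP-1 sites, and 7.71% of all windows held this motif. The MALAT1 window held 6 matches to the NRF1 core, some of them overlapping on the 2 strands. This short motif was found in 38.4% of all windows. The other window of MALAT1, chr11:65498795-65499094, differed: it had a G+C content of 46.0%, 14 CpG dinucleotides, no match to the GC box and 1 NRF1 core. That window also held 1 TATA box and 1 ETS site, motifs found in 11.5% and 17.2% of all windows. The other LINC00339 window, chr1:22025254-22025553, had a G+C content of 54.0%, 18 CpG dinucleotides, 1 GC box and no match to the AP-1 site. It also held 2 ETS sites. Of the RNAs whose windows are not printed, OIP5-AS1 (change -1.09) had a G+C content of 54.3%, 23 CpG dinucleotides and 1 GC box. NORAD (change -2.22) had a G+C content of 63.0%, 23 CpG dinucleotides and no match to the GC box. OIP5-AS1 thus had nearly the G+C content of LINC00339, with a change close to the median gene. The contrast between RNAs depends on which window and which RNAs are taken. These are matches of letters and were not tested against the changes.

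PVT1 (ENSG00000249859), on chromosome 8 beside MYC and host to several microRNAs, measured 9.92 and 10.66 TPM in JMC45 libraries and 18.79 and 15.11 TPM in vehicle libraries. Both JMC45 values lay below both vehicle values, as in 85.7% of all tested genes. Its mean was 10.29 ± 0.523 TPM after JMC45 and 16.95 ± 2.6 TPM with vehicle (SD, n = 2 each), and its log2 change was -0.66 (SE 0.13, limma adjusted p = 0.00328). The direction turned with the scaling: the change was 0.60 with median-of-ratios scaling (limma adjusted p = 0.00262) and 0.63 with quantile normalization (adjusted p = 0.00355). Without mitochondrially encoded and ribosomal protein genes it was -0.21 and did not pass (adjusted p = 0.175). MYC, the transcription factor gene beside it, fell under each of these scalings and measured 15.23 and 13.93 TPM in JMC45 libraries, against 100.43 and 93.25 TPM in vehicle libraries. Relative to MYC, PVT1 had a log2 ratio of -0.50 ± 0.164 in JMC45 libraries and -2.52 ± 0.147 in vehicle libraries (SD, n = 2 each), a difference of 2.02.

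PCAT1, a prostate cancer RNA from the same chromosome (ENSG00000253438), measured 0.40 and 0.83 TPM in JMC45 libraries and 0.81 and 1.46 TPM in vehicle libraries. The groups overlapped, and without the filter limma gave a change of -0.40 (adjusted p = 0.276 over 31100 genes). KCNQ1OT1 (ENSG00000269821, chromosome 11), which is read through KCNQ1 on the opposite strand, measured 0.08 and 0.14 TPM in JMC45 libraries and 0.34 and 0.25 TPM in vehicle libraries. Its values did not overlap between groups, but all lay under 1 TPM, and the share of genes at that level without overlap was not computed. Without the filter its change was -0.22 (limma adjusted p = 0.0656). KCNQ1 measured 0.58 and 0.49 TPM in JMC45 libraries and 0.43 and 0.22 TPM in vehicle libraries. CDKN1C, a cell-cycle inhibitor gene of the imprinted region, fell to 1.91 and 1.34 TPM in JMC45 libraries, against 5.51 and 6.69 TPM in vehicle libraries, a change of -1.44 that became -0.42 and did not pass with median-of-ratios scaling.

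OIP5-AS1 (ENSG00000247556, chromosome 15), known as cyrano in zebrafish, carries a conserved and nearly complete complement of the microRNA miR-7, through which it promotes destruction of miR-7 in mammals. The longest annotated transcript held 3 matches to the seed of miR-7. The best of them lay in a stretch that starts at position 2869 and differed from the full complement by 3 edits. Both sequences are shown because this site carries the known activity of the RNA; capitals mark bases 2 to 8 of the microRNA (RefSeq) and their match in the transcript (GENCODE release 29, written with T).
hsa-miR-7-5p: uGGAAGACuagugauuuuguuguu
OIP5-AS1 site: aacaacaaaatcaccaatGTCTTCCa

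OIP5-AS1 measured 57.66 and 60.41 TPM in JMC45 libraries and 125.79 and 127.46 TPM in vehicle libraries. The libraries of each group were close together and the groups were apart, with JMC45 lower, as in 85.7% of all tested genes. Its mean was 59.03 ± 1.94 TPM after JMC45 and 126.6 ± 1.18 TPM with vehicle (SD, n = 2 each), 2.14-fold lower, and its log2 change was -1.09 (SE 0.06, limma adjusted p = 2.26e-05). This was within 0.01 of the median gene, and the change turned to 0.26 with median-of-ratios scaling (limma adjusted p = 0.045), while it was -0.41 with quantile normalization (adjusted p = 0.0025). OIP5, a centromere protein gene whose exons overlap on the opposite strand, measured 8.43 and 6.59 TPM in JMC45 libraries and 28.69 and 29.99 TPM in vehicle libraries. OIP5-AS1 over OIP5 had a log2 ratio of 2.99 ± 0.299 in JMC45 libraries and 2.11 ± 0.032 in vehicle libraries (SD, n = 2 each). Of 13 genes of the microRNA machinery, 2 fell and 4 rose with median-of-ratios scaling, and 2 fell and 3 rose with quantile normalization. With TPM as deposited 11 fell, close to the share of all tested genes, and DGCR8, the partner of the processing enzyme DROSHA, rose by 0.31 (limma adjusted p = 0.0123), a change that became -0.14 with equal mitochondrially encoded totals and did not pass without either JMC45 library. TARBP2 (-2.99), AGO4 (-1.64), ELAVL1 (-1.34) and DICER1 (-1.31) were among those that fell with TPM as deposited. ELAVL1 (-0.02) and DICER1 (-0.18) did not pass with median-of-ratios scaling, and AGO4 (-0.29) and DICER1 (0.05) did not pass with quantile normalization, while TARBP2 passed with both.

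**Figure D3:**
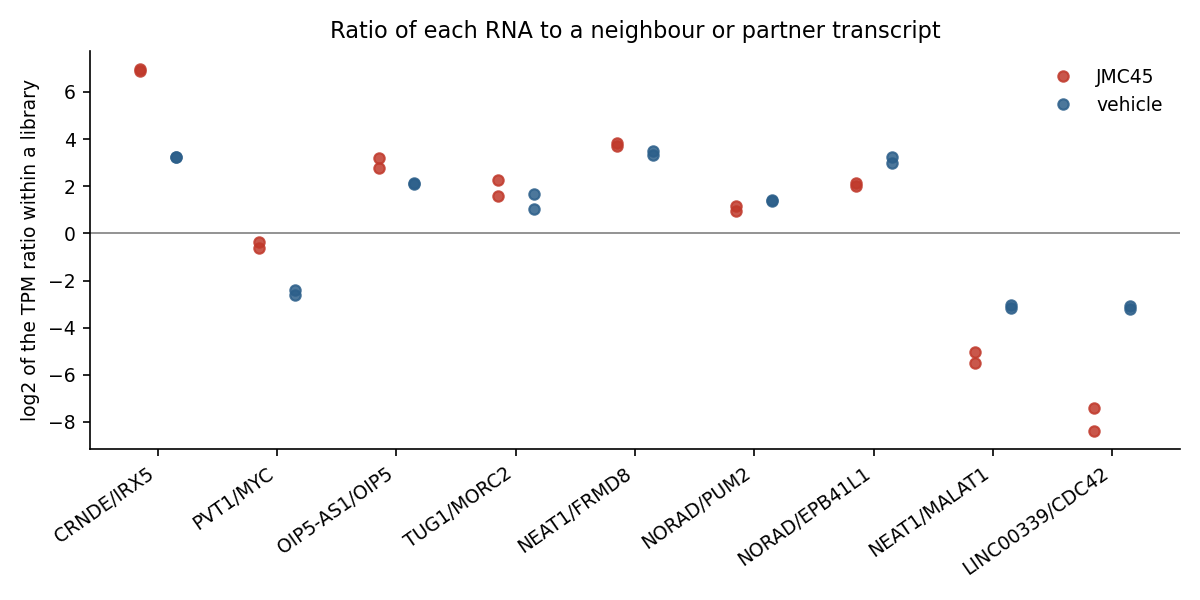
Log2 ratio of TPM between each RNA and its neighbour or partner gene within each library, with JMC45 points drawn left of vehicle points. CRNDE over IRX5 and PVT1 over MYC were higher in both JMC45 libraries, LINC00339 over CDC42 and NEAT1 over MALAT1 were lower, and TUG1 over MORC2 overlapped.

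Set beside each other, the RNAs diverged within the same libraries. MALAT1 made up 78.2% and 82.4% of the summed TPM of the 10 in JMC45 libraries and 60.9% and 55.7% in vehicle libraries. Without MALAT1 the other 9 summed to 208.5 and 204.4 TPM in JMC45 libraries, against 528.3 and 472.8 TPM in vehicle libraries. The sum of all 10, at 0.0954% and 0.116% of TPM in JMC45 libraries and 0.135% and 0.107% in vehicle libraries, overlapped between the groups, and it rests largely on MALAT1. How the oligo(dT) selection captured MALAT1 beside the other 9 is not known. In order of change on the log2 scale, LINC00339 came lowest, then TUG1, NORAD, NEAT1, OIP5-AS1 and PVT1, with CRNDE and MALAT1 highest. The changes of CRNDE and MALAT1 differed by less than the standard error of either.

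**Figure D4:**
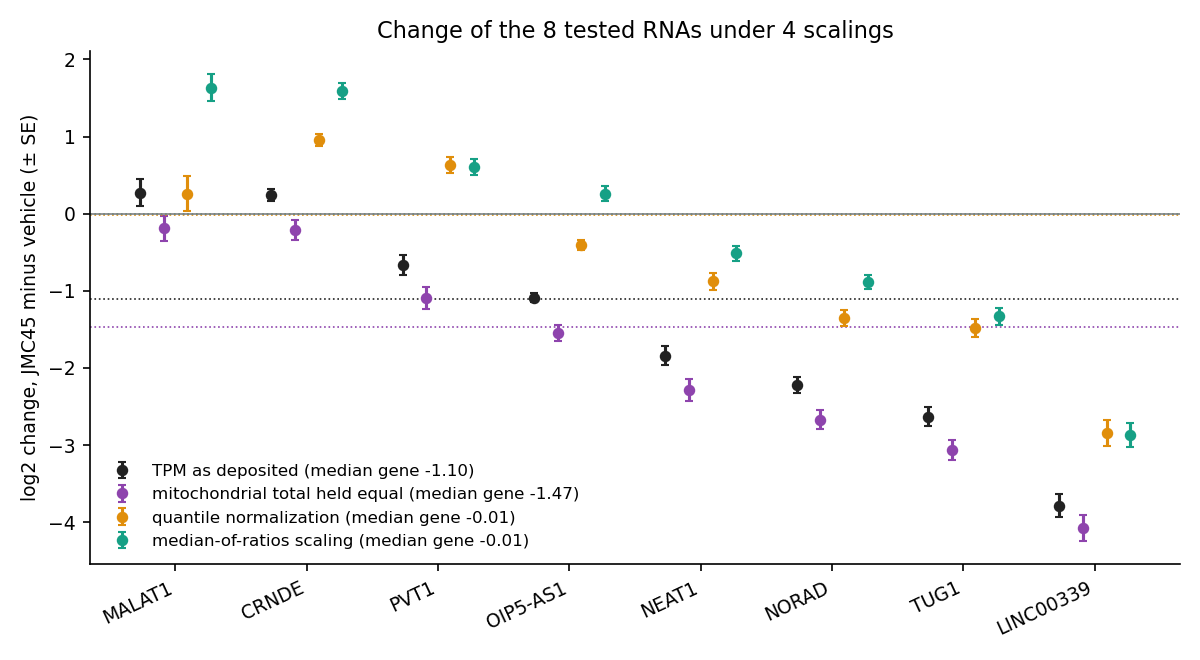
Log2 change, JMC45 minus vehicle, of each tested RNA under 4 scalings, drawn within each gene as TPM, equal mitochondrially encoded totals, quantile normalization and median of ratios; error bars are standard errors and dotted lines mark the median gene under each scaling. LINC00339, TUG1, NORAD and NEAT1 are below 0 under all 4, while PVT1, OIP5-AS1, CRNDE and MALAT1 cross 0.

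Genes beside the 10 RNAs mostly shared the downward shift: 10 of the 10 tested neighbours fell with TPM as deposited, with a median of -1.79. Of all tested genes 80.7% fell, and their median was -1.10. Both median-of-ratios scaling and quantile normalization gave 6 that fell and 1 that rose. Among 24 genes of chromatin silencing complexes, which several of these RNAs have been reported to bind, 23 fell, with a median of -1.53, among them EED (-2.93), CBX8 (-2.81) and EZH2 (-2.42). PHC1 measured 8.17 and 6.07 TPM in JMC45 libraries and 8.0 and 6.69 TPM in vehicle libraries and did not pass the test. With median-of-ratios scaling 12 of the 24 fell and 6 rose, while 15 fell and 3 rose with quantile normalization. Of all tested genes 35.3% fell and 35.5% rose with the former, and 34.4% fell and 32.7% rose with the latter. The tested genes whose profile over the 4 libraries was nearest to that of MALAT1, among 8016 candidates and by Euclidean distance of centred log2(TPM + 1), were ADCK5 (distance 0.197), TXNDC16 (0.201), MT-RNR1 (0.205), SNHG22 (0.206) and RCBTB1 (0.217).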

How the data were processed

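Per the file headers the authors deposited TPM per Ensembl gene for each library. Tools listed in the submitters' processing notes are HISAT2, StringTie and fastp; the sources do not name a genome build or annotation. Of 63241 genes (50 lines without values were left out), 62666 matched a symbol. The columns named CTL were assigned to the vehicle libraries by number. TPM keeps no depth, so no counting intervals are given.

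Log2(TPM + 1) was tested with limma 3.58.1 (R 4.3.3), two-sided, without a block and with an intensity trend, over the 14018 genes averaging 1 TPM or more. The procedure was tested on simulated data. Pair ratios were compared by exact permutation tests. Alternatives were other scalings, filters and pseudocounts, a replicate block, and each library left out. Python 3.11.15, pandas 2.3.3, scipy 1.17.1 and edlib 1.3.9.post1 were also used. Gene types and transcripts came from GENCODE release 29, promoter windows and microRNAs from RefSeq. Promoter windows of 6 of the 10 RNAs were examined. Those of PVT1 and PCAT1 were left out, and NEAT1 and KCNQ1OT1 had none in the source used.

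The members and gene lists were chosen with earlier results of these data known. The text names all 10 RNAs, listed partners and neighbours, in each list at most 4 of the genes past the threshold, by size of change, and any that moved against their list, and the 5 genes nearest in profile to the most abundant RNA. A few genes this rule names are not reported here.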

Additional observations from a re-analysis of the deposited data

How the results depend on the processing

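With TPM as deposited 596 genes were called higher and 11311 lower. The counts were 4982 higher and 4944 lower with median-of-ratios scaling, 4589 and 4827 with quantile normalization, 1643 higher without mitochondrially encoded and ribosomal protein genes, and 181 higher with equal mitochondrially encoded totals. Leaving out each library in turn gave 425 to 530 higher and 10513 to 11083 lower. Of the 10 RNAs, those called higher numbered 1, against 4 with median-of-ratios scaling, 2 with quantile normalization, 2 without mitochondrially encoded and ribosomal protein genes, 0 with equal mitochondrially encoded totals, with no filter or with no intensity trend, and 0 to 1 leaving out a library. Those called lower numbered 4 to 6.

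CRNDE changed by -0.21 with equal mitochondrially encoded totals, by 0.25 without passing with no filter (limma adjusted p = 0.0653) or no trend (adjusted p = 0.0808), and by 0.17 to 0.32 leaving out a library. MALAT1 changed by 1.64 with median-of-ratios scaling, by -0.19 with equal mitochondrially encoded totals, by 0.77 without mitochondrially encoded and ribosomal protein genes (limma adjusted p = 0.00953), and by 0.04 to 0.51 leaving out a library. PVT1 changed by 0.60 with median-of-ratios scaling, 0.63 with quantile normalization and -0.21 without mitochondrially encoded and ribosomal protein genes (adjusted p = 0.175). OIP5-AS1 changed by 0.26 with median-of-ratios scaling. Among partner genes, median-of-ratios scaling turned CDC42 to 0.82 and EPB41L1 to 0.12, quantile normalization turned EPB41L1 to 0.26 and DICER1 to 0.048, and the equal mitochondrially encoded total turned DGCR8 to -0.14 and DLEU2 to -0.051. The cause was not tested.

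Replicate numbers are shared between groups, but deviations of same-numbered libraries correlated at -0.05, so the numbers were not taken as pairs. With the replicate block 613 genes were called higher and 11380 lower, and of the 10 RNAs 1 was called higher and 6 lower. TPM gives shares and no depth, and 2 libraries a group set the precision.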

Other observations

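Of 62 other cancer-associated lncRNAs listed, 29 passed the filter, 21 fell and 3 rose, with a median change of -0.89. With median-of-ratios scaling 12 fell and 12 rose, and with quantile normalization 8 fell and 12 rose. Of all tested lncRNA genes 72.0% fell and 6.50% rose with TPM as deposited. With median-of-ratios scaling 36.4% fell and 25.3% rose, and with quantile normalization 30.7% fell and 29.8% rose. LINC00963, described in castration-resistant prostate cancer, measured 2.77 and 3.32 TPM in JMC45 libraries and 41.75 and 35.33 TPM in vehicle libraries (log2 change -3.29, limma adjusted p = 1.08e-05). MIR17HG, the host of the miR-17 cluster, changed by -2.30, DLEU1 by -2.25 and ZEB1-AS1 by -2.07, and all of them fell. These sizes depend on the number added to TPM: with 0.1 in place of 1 they were -3.92, -2.52 and -3.05. GAS5, a host of small nucleolar RNAs whose transcript is degraded when translated, rose and measured 1270.69 and 1215.43 TPM in JMC45 libraries against 622.16 and 708.33 TPM in vehicle libraries (0.90, limma adjusted p = 9.2e-05). H19, an imprinted RNA, rose by 0.77 (limma adjusted p = 0.00876), but its call was lost without JMC45 replicate 1. With 0.1 added to TPM in place of 1, H19 rose by 1.22, so the size of its change depends on that number. DLEU2, host of the miR-15a and miR-16 cluster, rose by 0.38 (limma adjusted p = 0.0159), a change that became -0.05 with equal mitochondrially encoded totals and whose call was lost without JMC45 replicate 2 or vehicle replicate 2.

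MALAT1, NEAT1, NORAD and KCNQ1OT1 have a longest annotated transcript of 1 exon, and the other 6 RNAs are spliced. Of the 543 tested lncRNA genes whose longest transcript has 1 exon, 382 fell and 45 rose, with a median of -1.06, while 217 fell and 146 rose with median-of-ratios scaling and 192 fell and 164 rose with quantile normalization. Of 935 with 2 or more exons, 682 fell and 51 rose, with a median of -1.04, while 321 fell and 228 rose with median-of-ratios scaling and 262 fell and 276 rose with quantile normalization. The difference between the classes was not tested.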
